A study of Saccharomyces cerevisiae with 4 samples.

Results

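The genes described here are nuclear genes of budding yeast (Saccharomyces cerevisiae) whose predicted proteins carry a strong mitochondrial targeting signal but which the deposited table does not annotate as mitochondrial. The rule that chose them used that annotation and the read depth over the pulldown and input with cycloheximide, and no enrichment value. It was set with earlier results of these data known. A gene had to have a MitoProt score of at least 0.9, a negative entry in both the MitoP2 and the Gene Ontology mitochondrial columns, no predicted signal peptide and no GFP localization at the nuclear periphery. Genes with symbols of the RPL, RPS, AIM, FMP, UTP, NOP, RRP, ERG and PEX families were left out. These criteria were met by 218 genes, of which 137 had at least 100 ribosome footprint reads over the 2 libraries made with cycloheximide, out of 6692 genes in the table. The remaining 81 had between 0 and 97 reads (median 5, and 18 had none) and were not measured. The 137 members had between 122 and 83115 reads over those 2 libraries, with a median of 2228.

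A presequence is an N-terminal stretch that can fold into an amphipathic helix with a basic face. It is recognised at the outer membrane by receptors such as Tom20, passes through the Tom40 channel and the TIM23 translocase, is pulled into the matrix by the motor around the Hsp70 protein Ssc1, and is cut off by the processing peptidase Mas1/Mas2. MitoProt scores, from the amino acid sequence alone, how likely a protein is to carry such a signal and be imported. Many messages for imported proteins are translated by ribosomes that sit on the outer membrane.

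Proximity-specific ribosome profiling recorded which ribosomes were near that membrane. The cells were of strain background S288C and carried OM45-mVenus-BirA at the OM45 locus, which places the biotin ligase BirA on the outer membrane through the membrane protein Om45. Both genes of ribosomal protein Rpl16 were fused to HA, a TEV site and an AVI tag, the peptide that BirA biotinylates. The genotype also lists pPGK1-BirA with a LEU2 marker at leu2, and ura3Δ0, met15Δ0 and his3Δ1; all groups shared this single genotype, and the labels describe no cells without a BirA fusion. Cells were grown in minimal medium with 0.125 ng/ml biotin and pulsed for 2 min with 10 nM biotin. The 4 groups were the streptavidin pulldown with cycloheximide, the input (all ribosomes) with cycloheximide, the pulldown without cycloheximide and the input without cycloheximide. Cycloheximide, which stops elongation and holds ribosomes on their messages, was given at 100 µg/ml for 2 min before the biotin. Each group held 1 library, so no value below has a replicate check, no test was made, and intervals cover counting error only.

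Gene totals came to 37467060 reads in the pulldown and 22528297 in the input with cycloheximide, and to 15705022 in the pulldown and 18172572 in the input without the drug. The members held 1.13% of nuclear-gene reads in the pulldown and 1.54% in the input with cycloheximide (95% Wilson intervals 1.13 to 1.13% and 1.53 to 1.54%). Without cycloheximide their share was 1.02% of the pulldown (1.01 to 1.02%) and 0.968% of the input (0.964 to 0.973%). As a check of the genotype, MET17 (the gene at the met15 locus) had 4, 0, 0 and 0 reads in the order of the groups above, and URA3 had none. LEU2, which the label lists as a marker of the added construct, had 1, 0, 2 and 0 reads. LEU2 reads were thus nearly absent although the label lists this marker. Whether reads of the marker would be counted at the LEU2 gene is not known here. Whether the pPGK1-BirA construct was present in these cells was not tested. OM45 itself stood at a log2 enrichment of 4.27 with cycloheximide and 2.26 without, whereas the tagged RPL16A stood at 0.12 and -0.10 and RPL16B at 0.22 and -0.19.

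Enrichment below is the log2 of pulldown over input, each library scaled to its nuclear-gene reads, and given relative to the median gene of that comparison; a gene was counted as enriched at 2-fold or more above the median gene. With cycloheximide 14 of the 137 members were enriched, against 12.5% of the 5464 genes measured, and 0 were 2-fold below the median gene, against 0.201% of all genes. The members' share of 10.2% was therefore close to the background of the whole table. Their median was -0.01, so the typical member was read near Om45 like the median gene. Of the 137 members, 112 lay within 0.5 of the median gene on the log2 scale, and the 123 members not enriched had a median of -0.04. Counting error was small beside this spread, with a median half-width of the 95% interval of 0.12.

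Genes with the same MitoProt range and positive mitochondrial annotation looked different. Of 259 such genes, 215 (83.0%) were enriched with cycloheximide and their median was 2.86. Genes without annotation and with lower scores were closer to the members. Of 399 with a score from 0.5 to 0.9, 22 (5.51%) were enriched (median -0.04), and of 3331 with a score under 0.5, 140 (4.20%) were enriched (median -0.05). Relative to the median gene, the members' excess over these classes was in the upper tail of the distribution and not in its centre. The excess depended on this centring. On library totals without it, 5 of the 137 members were 2-fold higher, against 12 of the 399 and 52 of the 3331. Within the members the enriched share did not follow the score. It was 8 of 60 from 0.9 to 0.95, 4 of 54 from 0.95 to 0.99 and 2 of 23 above 0.99 (13.3%, 7.41% and 8.70%). Over the same 3 score ranges 80%, 82.6% and 85.3% of the annotated genes were enriched. Across the 137 members the MitoProt score and the log2 enrichment had a Pearson r of 0.02 and a Spearman rho of -0.04, as a description of points that share the same 2 libraries.

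**Figure D1:**
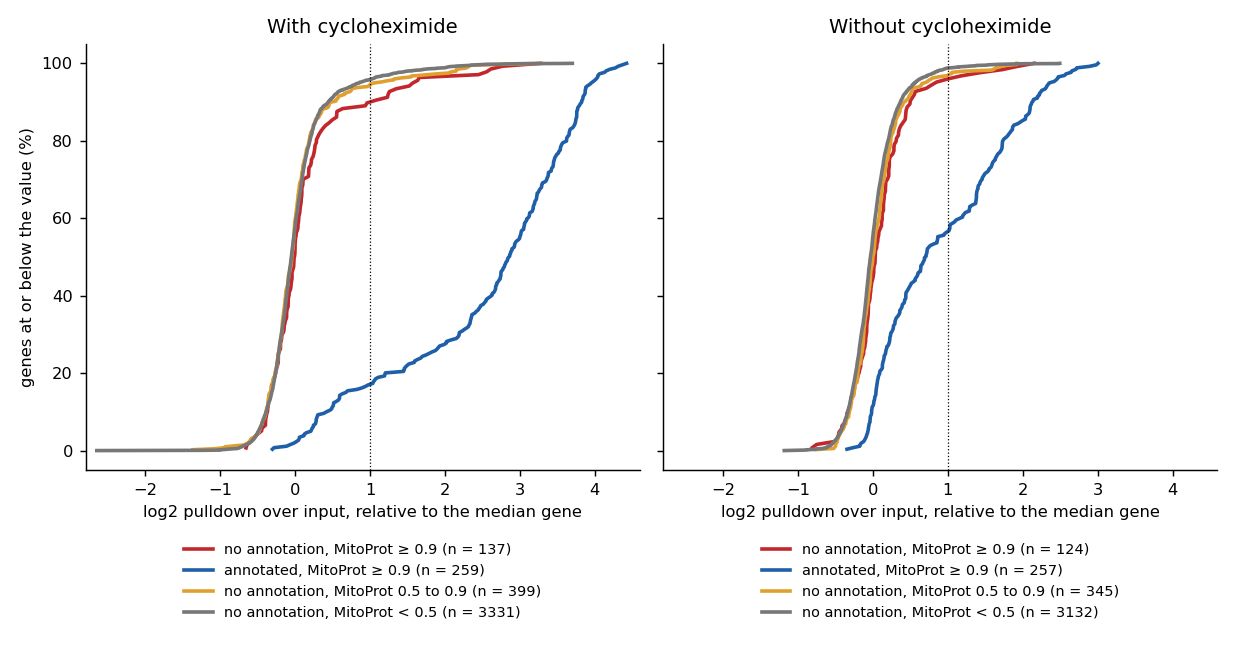
Cumulative distribution of the log2 pulldown over input, relative to the median gene, for the members (red), annotated genes with the same MitoProt range (blue) and 2 classes of unannotated genes with lower scores (orange, grey), with cycloheximide on the left and without it on the right. The dotted line marks 2-fold. The red line follows the orange and grey ones at its centre and parts from them near 2-fold with cycloheximide, where 14 of 137 members lie to its right, against 215 of 259 annotated genes.

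The 14 enriched members fell into 5 that stood 4-fold or more above the median gene, against 8.29% of all genes at that fold, and 9 between 2-fold and 4-fold. No member had a value between 1.66 and 2.45 on the log2 scale. Together the 14 held 0.310% of nuclear-gene reads in the pulldown and 0.151% in the input with cycloheximide, and 0.182% in the pulldown and 0.112% in the input without it. None of the members has a mitochondrial GFP localization in the deposited table; 50 of 137 have any entry, among them 3 of the 14 enriched and 47 of the 123 others.

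**Figure D2:**
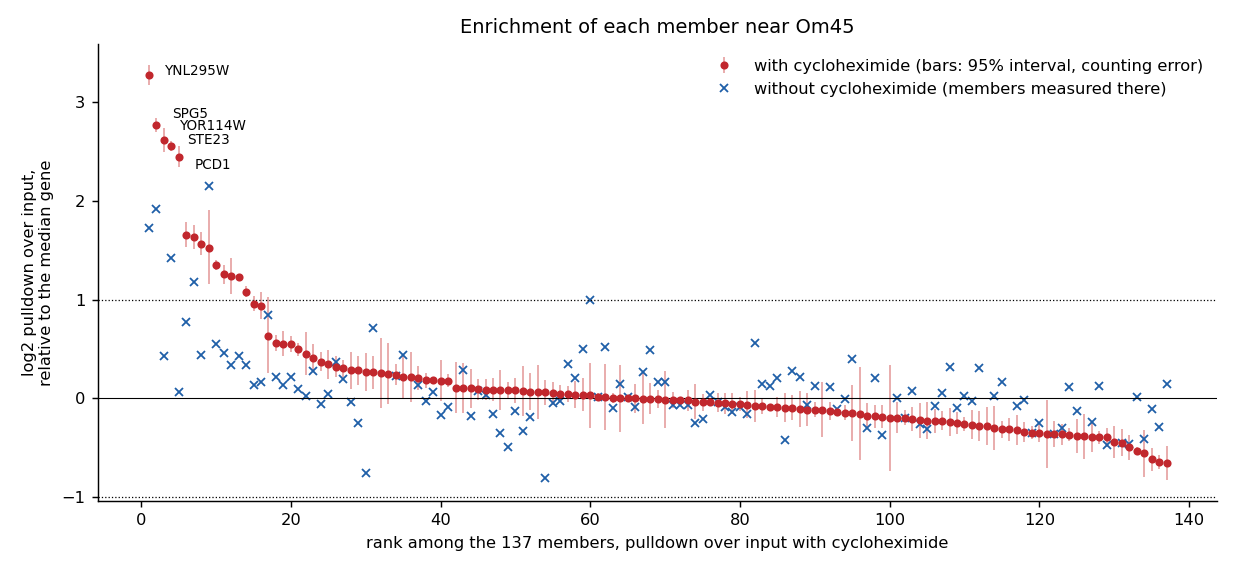
The 137 members ranked by log2 pulldown over input with cycloheximide (red points, bars are 95% counting intervals), with the value without cycloheximide for the 124 measured there (blue crosses). Dotted lines mark 2-fold above and below the median gene. The 5 named members stand apart from the 9 between 2-fold and 4-fold, and none of the 137 lies 2-fold below the median gene with cycloheximide.

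The top and the third members are genes that had no name in the deposited table. YNL295W, named MRX6 in the reference annotation and known as a regulator of mitochondrial DNA copy number, lies on chromosome XIV from 76946 to 78520 (R64 assembly, sacCer3). It had 8626 reads in the pulldown and 883 in the input with cycloheximide, and 706 in the pulldown and 252 in the input without it. Its enrichment was 3.28 with cycloheximide (95% interval 3.18 to 3.38), above 97.4% of all genes, and 1.73 without it (1.52 to 1.94), above 97.6%. YOR114W, named CIM1 in the reference and known as a mitochondrial HMG-box protein that also acts on mitochondrial DNA copy number, lies on chromosome XV from 537570 to 538454. It had 3942 reads in the pulldown and 640 in the input with cycloheximide, and 239 in the pulldown and 210 in the input without it. Its enrichment was 2.61 with cycloheximide (2.49 to 2.74) and 0.43 without it (0.16 to 0.70). For both genes, the missing mitochondrial annotation is a property of the deposited table and not of later knowledge. Later knowledge is given here for a choice of members only. In all, 18 members with only a systematic name in the deposited table have a name in the reference. Some of these were not enriched, among them YGL041W-A (DPC13) at 0.37, YAL044W-A (BOL1) at 0.21 and YKL044W (MMO1) at -0.32 with cycloheximide. Later knowledge of these genes is not given here, so nothing is read on whether a later known mitochondrial role goes with enrichment.

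SPG5, on chromosome XIII from 645656 to 646777, is known for survival of stationary phase and as a partner of the proteasome there. It had 12392 reads in the pulldown and 1805 in the input with cycloheximide, and 2255 in the pulldown and 704 in the input without it. Its enrichment was 2.77 with cycloheximide (2.70 to 2.84) and 1.92 without it (1.80 to 2.05), which put it above 98.3% of all genes in the second condition. Its values in both conditions lay closer together than those of the other members at 4-fold or more.

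STE23, on chromosome XII from 899577 to 902660, encodes a metalloprotease of the insulin-degrading family that trims the mating pheromone a-factor. The mitochondrial peptidase subunits Mas1 and Mas2 belong to the same superfamily of metalloproteases. STE23 had 23834 reads in the pulldown and 4029 in the input with cycloheximide, and 6021 in the pulldown and 2651 in the input without it. Its enrichment was 2.56 with cycloheximide (2.51 to 2.61) and 1.43 without it (1.36 to 1.49). In the same libraries MAS1 stood at 2.42 and MAS2 at 2.28 with cycloheximide, and at -0.08 and 0.31 without it.

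PCD1, on chromosome XII from 441715 to 442737, encodes a Nudix hydrolase for coenzyme A derivatives that is known from peroxisomes. It had 4759 reads in the pulldown and 867 in the input with cycloheximide, and 247 in the pulldown and 280 in the input without it. Its enrichment was 2.45 with cycloheximide (2.34 to 2.56) and 0.06 without it (-0.19 to 0.31). PCD1 was thus at the median gene without the drug, and its interval there includes the median gene.

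Among the 9 members between 2-fold and 4-fold, a pair act on tRNA. DEG1, a tRNA pseudouridine synthase listed as nuclear in the GFP column, had 2066 reads in the pulldown and 651 in the input with cycloheximide, and 559 in the pulldown and 386 in the input without it. Its enrichment was 1.66 with cycloheximide (1.53 to 1.79) and 0.78 without it (0.59 to 0.97). RIT1, which adds a ribosyl phosphate mark to the initiator tRNA, had 2237 reads in the pulldown and 715 in the input with cycloheximide, and 496 in the pulldown and 259 in the input without it. Its enrichment was 1.64 with cycloheximide (1.52 to 1.76) and 1.18 without it (0.96 to 1.40), so it was 2-fold above the median gene by its value in both conditions. RIT1 lies on chromosome XIII from 835326 to 836867, at 227 bp from AEP2, an annotated mitochondrial gene with an enrichment of 3.27.

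ECM4 and DUG3 act on glutathione. ECM4, a glutathione transferase listed as cytoplasmic, had 2457 reads in the pulldown and 824 in the input with cycloheximide, and 356 in the pulldown and 311 in the input without it. Its enrichment was 1.57 with cycloheximide (1.45 to 1.68) and 0.44 without it (0.21 to 0.66). DUG3, a subunit of the complex that degrades glutathione, had 835 reads in the pulldown and 351 in the input with cycloheximide, and 232 in the pulldown and 217 in the input without it. Its enrichment was 1.24 with cycloheximide (1.06 to 1.43) and 0.34 without it (0.07 to 0.61). Both genes were above the median gene in each condition and 2-fold above it only with cycloheximide.

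LAP2 encodes an aminopeptidase related to leukotriene hydrolases, and UBP13 a ubiquitin-specific protease. LAP2 had 12027 reads in the pulldown and 4697 in the input with cycloheximide, and 3083 in the pulldown and 2490 in the input without it, which gave an enrichment of 1.35 (1.30 to 1.40) with cycloheximide and 0.55 (0.47 to 0.63) without it. UBP13 had 3081 reads in the pulldown and 1281 in the input with cycloheximide, and 744 in the pulldown and 642 in the input without it, which gave 1.26 (1.16 to 1.35) and 0.46 (0.30 to 0.61). CAM1, the gamma subunit of a translation elongation factor, was the most abundant enriched member. It had 31915 reads in the pulldown and 13510 in the input with cycloheximide, and 13517 in the pulldown and 11840 in the input without it. Its enrichment was 1.23 with cycloheximide (1.20 to 1.26) and 0.43 without it (0.40 to 0.47). The gene 561 bp from CAM1, DIG1, has no mitochondrial annotation and stood at 2.43 and 0.86.

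The last pair of enriched members are short reading frames beside annotated mitochondrial genes. YLR252W, of 101 amino acids and absent from the reference gene table, had 238 reads in the pulldown and 82 in the input with cycloheximide, and 99 in the pulldown and 26 in the input without it. Its enrichment was 1.52 with cycloheximide (1.16 to 1.91) and 2.15 without it (1.54 to 2.86), the highest value of a member without the drug. It passes the minimum of 100 reads there mainly through its pulldown, and a minimum of 100 reads in each input leaves it out. That minimum gave 13 of 133 members enriched with cycloheximide, where the share of all genes was not counted. Without the drug it gave 4 of 111, against 5.94% of all genes. The genes numbered on either side of YLR252W, SYM1 and YLR253W, are both annotated mitochondrial and stood at 1.48 and 3.01 with cycloheximide. YJR120W, of 116 amino acids and named DMO1 in the reference, lies 130 bp from ATP2, a subunit of the ATP synthase. It had 7760 reads in the pulldown and 3645 in the input with cycloheximide, and 90 in the pulldown and 84 in the input without it. Its enrichment was 1.08 with cycloheximide (1.03 to 1.14) and 0.34 without it (-0.10 to 0.79), while ATP2 stood at 4.20 and 1.03. Whether footprints of a neighbouring message were assigned to these short frames was not tested.

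Of the 14 enriched members, 5 lie beside a gene that was itself enriched with cycloheximide. These are RIT1, CAM1, YLR252W, YJR120W and ECM4, which lies 257 bp from MSA2 (1.31 with cycloheximide and 0.42 without). The genes on either side of the other 9 were under 2-fold. Of all genes measured, 12.5% were themselves enriched. The share of all genes that lie beside an enriched gene was not counted, so nothing is read from the count of 5. Members that were not enriched beside enriched genes were also found. YGR151C, numbered next to the annotated gene CCM1 at 3.27, had 246 reads in the pulldown and 360 in the input with cycloheximide and stood at -0.56 (-0.80 to -0.32). YDR220C, numbered next to the annotated gene MFB1 at 3.47, had 261 reads in the pulldown and 241 in the input with cycloheximide and stood at 0.11 (-0.15 to 0.37). SSU1, a sulfite efflux pump gene 332 bp from the annotated gene GLR1 at 1.79, stood at -0.54 (-0.58 to -0.49). KDX1, 547 bp from the annotated gene YKL162C at 2.07, stood at -0.11. Neighbours were looked up for a choice of members and not for all 137, and their part in the members' values was not tested.

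**Figure D3:**
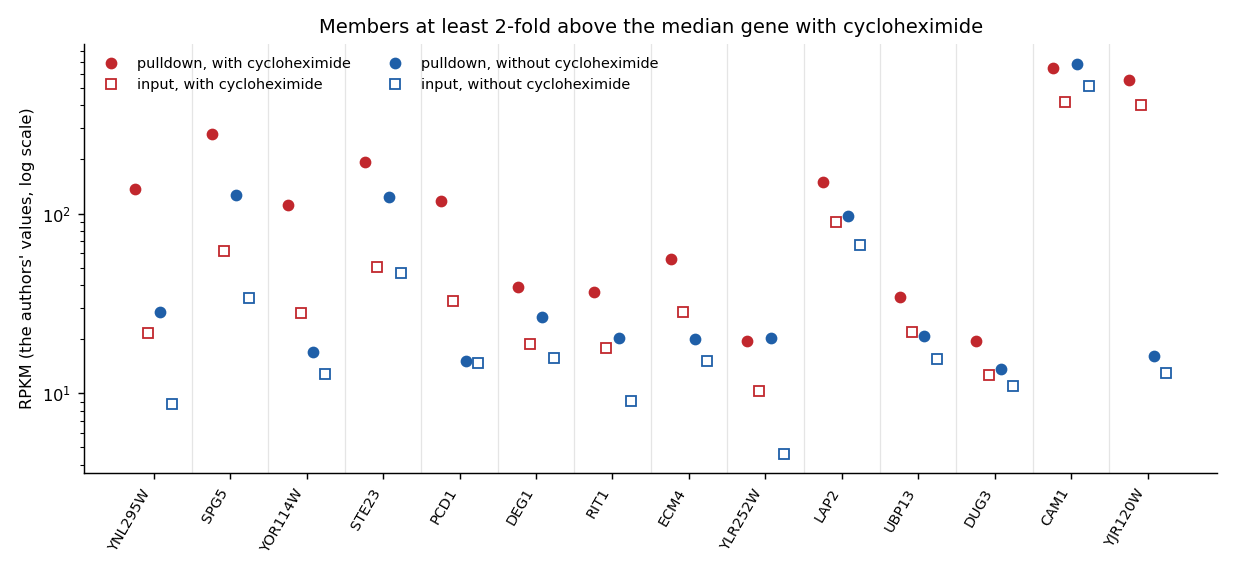
RPKM (the authors' values per gene length and library size, log scale) of the 14 members enriched with cycloheximide, ordered by enrichment, with pulldowns as filled circles and inputs as open squares, red with cycloheximide and blue without it. The gap between circle and square narrows without cycloheximide for all but RIT1 and YLR252W, and most for YOR114W and PCD1. YJR120W stands at 556 and 400 RPKM in the pulldown and input with cycloheximide, against 16.2 and 13.0 RPKM without it.

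On the per-length RPKM scale the enriched members had neither the most nor the fewest footprints. Their input level with cycloheximide ran from 10.3 RPKM in YLR252W to 416 RPKM in CAM1, with a median of 28.2, against a median of 32.3 and a range of 2.68 to 3882 RPKM in the 123 other members. Their predicted proteins had a median of 394 amino acids (101 to 1027), against 339 (85 to 1584) in the others, and a median MitoProt score of 0.949, against 0.964. Of the 29 members of at most 150 amino acids, 2 were enriched. Protein length and log2 enrichment with cycloheximide had an r of 0.02 and a rho of -0.02 across the 137 members.

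The step at 2-fold falls in a thin region of the list. Just inside it were DUG3 at 1.24, CAM1 at 1.23 and YJR120W at 1.08. Just outside were MEU1 at 0.96 (0.88 to 1.04), PXA1 at 0.94 (0.80 to 1.07) and YLR280C at 0.64 (0.25 to 1.03). MEU1 encodes the phosphorylase of the methionine salvage pathway and had 3789 reads in the pulldown and 1938 in the input with cycloheximide, and 1322 in the pulldown and 1421 in the input without it. PXA1 encodes a subunit of the peroxisomal transporter for long-chain fatty acids and had 1300 reads in the pulldown and 675 in the input with cycloheximide, and 90 in the pulldown and 95 in the input without it. The counting intervals of all 3 genes outside reach 2-fold. After them the next members were the kinase genes SAT4 and KIN82 at 0.56 each and IML1, which encodes a regulator of TORC signalling at the vacuole, at 0.55.

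The rule itself has 2 edges. The members nearest the score minimum were the nuclear pore and spindle pole gene NDC1 (0.9031), the histone acetyltransferase gene SAS2 (0.906) and YOR248W (0.9063), and their enrichments were -0.09, -0.00 and 0.50. Just outside it, PER33 (0.8995), YAR023C (0.8994) and IOC2 (0.8978) stood at -0.35, -0.01 and -0.33. At the read minimum the last members were YFL032W, YLR307C-A and YLR280C with 122, 156 and 241 reads over both libraries, and the first genes left out were YKL065W-A and TRK2 with 97 reads each and YDL086C-A with 87.

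The authors' deposited table makes its own calls of enrichment. With cycloheximide it calls 5 of the 133 members it assesses, YNL295W, SPG5, YOR114W, STE23 and PCD1, against 7.58% of all genes assessed. Without cycloheximide it calls 3 of 111, YNL295W, SPG5 and STE23, against 4.52%. These 5 are the members at 4-fold or more here, since the lowest log2 enrichment called in the authors' deposited table is 1.58 and the highest not called is 1.57, on the authors' scale without centring on the median gene. The authors' deposited table also lists 36 genes as enriched without annotation. Of these, 6 have a MitoProt score of at least 0.9 (the same 5 members and NUP100, which the nuclear-periphery criterion leaves out), 6 a score from 0.5 to 0.9 and 24 a score under 0.5.

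Without cycloheximide 124 members had at least 100 reads over that pair of libraries, and the other 13 were not measured. Of the 124, 5 were enriched, against 6.39% of 5148 genes, and 0 were 2-fold below the median gene, against 0.0777%. Their median was 0.03. The 5 were YLR252W at 2.15, SPG5 at 1.92, YNL295W at 1.73, STE23 at 1.43 and RIT1 at 1.18, and all of them were among the 14 enriched with cycloheximide. All 14 had values above 0 without the drug, but the intervals of PCD1 (-0.19 to 0.31) and YJR120W (-0.10 to 0.79) include 0. How often genes enriched in 1 condition were high in the other was not counted over all genes. Nothing is read from these overlaps. In the annotated class with the same score range, 112 of 257 genes were enriched without the drug (43.6%, median 0.71). In the unannotated classes 11 of 345 genes with an intermediate score and 39 of 3132 with a low score were enriched.

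**Figure D4:**
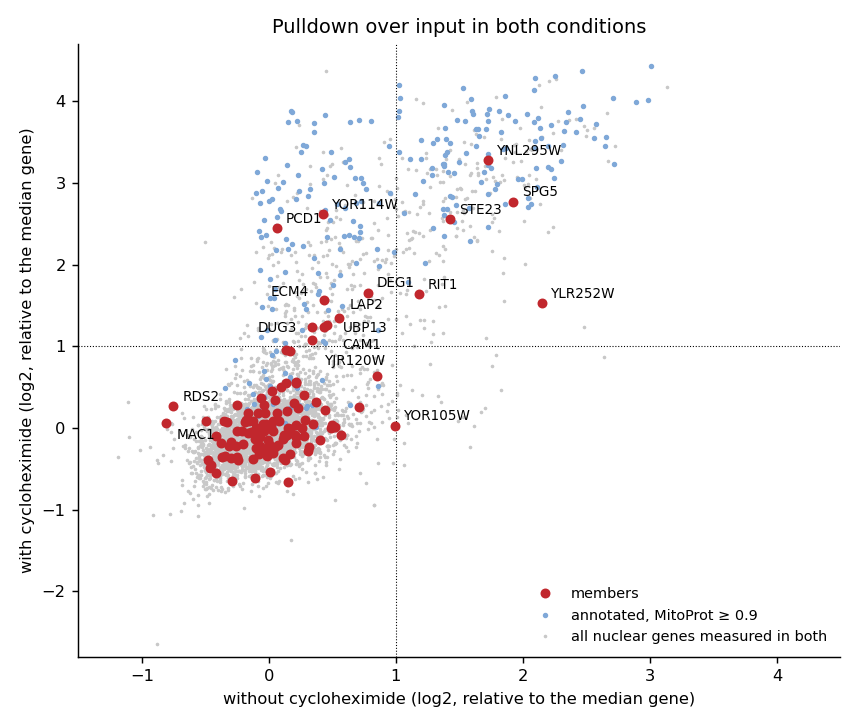
Log2 pulldown over input with cycloheximide (vertical) against the same without it (horizontal), relative to the median gene, for the 124 members measured in both (red), annotated genes with the same MitoProt range (light blue) and all nuclear genes measured in both (grey). Dotted lines mark 2-fold. PCD1 and YOR114W lie high on the left, at 2.45 and 2.61 with and 0.06 and 0.43 without cycloheximide, and YLR252W is the one named member above 1 on both axes that lies further right than up.

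Below the 5 the order without cycloheximide rested on fewer reads, and the members' intervals had a median half-width of 0.19. YOR105W, a frame of 108 amino acids, had 155 reads in the pulldown and 151 in the input with cycloheximide, and 120 in the pulldown and 71 in the input without it. It stood at 0.03 with cycloheximide (-0.30 to 0.36) and at 0.996, just under 2-fold, without it (0.56 to 1.44). YOR105W overlaps the gene PIN2 by 296 bp, so reads in the shared stretch cannot be told apart between the pair, and PIN2 stood at -0.08 and 0.29. The next members without cycloheximide were YLR280C at 0.85 (0.35 to 1.36), DEG1 at 0.78 and the spliceosome gene CWC21 at 0.71 (0.40 to 1.02), whose value with cycloheximide was 0.26.

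At the low end without cycloheximide stood MAC1 and RDS2, both transcription factor genes, of copper uptake and of gluconeogenesis. MAC1 had 1005 reads in the pulldown and 959 in the input with cycloheximide, and 153 in the pulldown and 318 in the input without it, which gave 0.06 (-0.07 to 0.19) and -0.81 (-1.10 to -0.53). RDS2 had 486 reads in the pulldown and 402 in the input with cycloheximide, and 92 in the pulldown and 184 in the input without it, which gave 0.27 (0.07 to 0.46) and -0.75 (-1.13 to -0.39). The clamp loader gene RFC1 at -0.50, the cell cycle kinase gene HSL1 at -0.48, YNL260C (LTO1 in the reference) at -0.46 and the farnesyltransferase gene RAM1 at -0.45 followed. HSL1, YNL260C and RAM1 were also among the lower members with cycloheximide, at -0.40, -0.50 and -0.45.

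With cycloheximide the lowest members were SIA1 at -0.66 (-0.83 to -0.48), RTS1 at -0.64 (-0.72 to -0.57) and SQS1 at -0.62 (-0.73 to -0.50). RTS1 encodes a regulatory subunit of protein phosphatase PP2A, and SQS1 a partner of the ribosome assembly helicase Prp43. RTS1 had 2462 reads in the pulldown and 3828 in the input with cycloheximide, and 1707 in the pulldown and 2475 in the input without it. Counting intervals with cycloheximide lay above the median gene for 36 of the 137 members and below it for 47. The 36 include every member enriched with cycloheximide, so not all of them are small departures. The share of all genes with such intervals was not counted, so nothing is read from these counts. The departures carried no replicate check.

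Across the 124 members measured in both conditions, the values with and without cycloheximide had a Pearson r of 0.68 and a Spearman rho of 0.49. Leaving out the 14 enriched members gave 0.31 for each over 110 members. These are descriptions across genes that share the same 4 libraries and are not independent.

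The difference of the enrichments, with minus without cycloheximide, was 2-fold or more above the median gene for 5 of 124 members, against 9.57% of 5141 genes, and 2-fold or more below it for 1, against 0.622%. The median difference was -0.03. The 5 were PCD1 at 2.34 (2.08 to 2.61), YOR114W at 2.14 (1.85 to 2.44), YNL295W at 1.51 (1.28 to 1.74), and ECM4 and STE23 at 1.09 each (0.84 to 1.34 and 1.01 to 1.17). RDS2 followed at 0.98 (0.57 to 1.38). The 1 member below was YOR105W at -1.01 (-1.54 to -0.48). SPG5 at 0.81 (0.67 to 0.95), DEG1 at 0.84 (0.61 to 1.07) and RIT1 at 0.42 (0.17 to 0.66) were enriched with the drug and differed by less than 2-fold between conditions. YLR252W, at -0.67 (-1.39 to 0.05), was the only one of the 14 with a negative difference, and its interval includes 0. In the annotated class, 188 of 257 genes passed 2-fold in this difference (median 1.59).

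Scaling matters for these counts, because the median gene itself had a log2 pulldown over input of -0.73 with cycloheximide and -0.03 without it on library totals. On totals with cycloheximide, 5 members were 2-fold higher and 26 were 2-fold lower, against 14 and 0 relative to the median gene (all genes, 9.13% and 16.1%). For the difference, 2 members were higher and 23 lower on totals, against 5 and 1 (all genes, 4.55% and 13.5%). Without cycloheximide the counts were 5 and 0 under both scalings (all genes on totals, 6.06% and 0.0777%). Other folds were counted in the same way. At 1.5-fold the counts were 17 with the drug and 9 without it, against 15.8% and 10.4% of all genes, and 16 in the difference and 37 in the inputs, against 14% and 20.9%. At 4-fold the counts were 5 with cycloheximide and 1 without it, against 8.29% and 1.48% of all genes, and 2 in the difference and 9 in the inputs, against 2.78% and 3.31%.

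All but 72 of the 137 members were placed in 8 groups by known role after their values had been seen. All 14 enriched members are among the 72 in no group, so that the groups hold none of them follows from how they were made and is not a result. The histones were the most abundant: HHT2 had 41648 reads in the pulldown and 41467 in the input with cycloheximide, and 12319 in the pulldown and 14490 in the input without it, and stood at -0.00 and 0.01. The 8 histone genes ranged from -0.14 to 0.18 with cycloheximide (median -0.02) and from -0.11 to 0.12 without it. Histones have basic N-terminal tails, and these proteins score at least 0.9 in MitoProt by the rule; their footprints were recovered near Om45 at the level of the median gene.

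Genes of the nucleolus and of ribosome assembly (9 members, among them the small nucleolar RNP gene GAR1 and the 60S assembly gene RPF2) had a median of 0.01 with cycloheximide and 0.15 without it. DNA replication and chromosome segregation (11 members, among them the Aurora kinase gene IPL1 and the primase gene PRI2) had medians of -0.06 and -0.25. Transcription (9 members) had a median of 0.06 with cycloheximide and, over the 7 measured, -0.30 without it. Splicing and 3' end formation (4 members) had medians of 0.10 with cycloheximide and -0.17 without it. Kinases, phosphatases and cell cycle genes (9 members) spread most with cycloheximide, from RTS1 at -0.64 to SAT4 at 0.56.

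Groups of the secretory pathway and of membranes had medians below the median gene with cycloheximide, as had the histones (-0.02) and DNA replication and chromosome segregation (-0.06). The 9 genes of glycosylation and GPI anchors, among them the mannosyltransferase gene OCH1, ranged from -0.34 to 0.18 with a median of -0.20, and from -0.21 to 0.50 with a median of 0.00 without cycloheximide. The 6 genes of membrane lipids and phosphoinositides, among them the dehydratase gene PHS1 at -0.40, had medians of -0.11 and 0.00. The 6 members that the deposited table lists as glycosylated lay between -0.26 and 0.18 with cycloheximide. Of the 27 members with a nuclear or nucleolar GFP localization, DEG1 was the one that was enriched.

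Some members have a partner from the whole-genome duplication. The table gives 12 members in 11 such pairs, and in 10 pairs 1 partner is a member and the other, with a MitoProt score from 0.0022 to 0.8915, is not. The member was higher than its partner in 7 of these 10 with cycloheximide and in 4 of the 8 measured without it. In 3 of the 7, AVT6, ENT1 and KDX1, the difference was 0.02, 0.04 and 0.06 on the log2 scale, inside the counting intervals. For YDR018C the difference was 0.27, and its interval (-0.10 to 0.61) also includes the value of its partner CST26, -0.02. The median absolute difference over the pairs was 0.28. UBP13 (MitoProt 0.9168) stood at 1.26, against 0.38 (0.21 to 0.56) for UBP9 (0.2916); without cycloheximide the values were 0.46 and -0.05. KIN82 (0.9722) stood at 0.56, against -0.13 for FPK1 (0.0022). PAP2 (0.9145), a noncanonical poly(A) polymerase, ran the other way at -0.18, against 0.20 for TRF5 (0.1788), and at -0.37, against 0.60, without cycloheximide. How reads that map to both partners of a pair were counted is not known here, so values of near-identical pairs are uncertain.

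The inputs hold the footprints of each member over all ribosomes of the cell. Message amount was not measured, so it cannot be told apart from translation in them. Of the 136 members measured in both inputs, 17 were 2-fold or more higher with cycloheximide than without it relative to the median gene, against 10.6% of 5380 genes, and 5 were 2-fold or more lower, against 10.4%. The rule asks for reads in the libraries with cycloheximide, this input among them, so nothing is read from the count of 17. Among the 111 members with at least 100 reads in the input without cycloheximide, 3 were higher and 5 lower, against 6.53% and 10% of 4929 genes. On library totals, where the median gene itself stood at 0.74, the counts were 51 and 0 (all genes, 34.9% and 2.14%). The 5 lower members were GAR1 at -1.47 (-1.56 to -1.39), RPF2 at -1.42 (-1.54 to -1.30), YOR248W at -1.24, YIL096C at -1.16 and YPL245W at -1.15. YIL096C is BMT5 in the reference, an rRNA methyltransferase gene. GAR1, RPF2 and YIL096C were 3 of the 9 members placed with the nucleolus and ribosome assembly, and the other 6 were not 2-fold lower.

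At the high end, 7 members were 16-fold or more higher in the input with cycloheximide, against 0.762% of all genes. All 7 had under 100 reads in the input without cycloheximide and pass the read minimum through the input with it, so these values are a description. They encode proteins of 87 to 151 amino acids. YNL179C had 4137 reads in the input with cycloheximide and 69 in the input without it. YKL044W (MMO1 in the reference) had 1423 and 22, YEL045C 707 and 7, and YFR032C-B (MIN10) 502 and 9. YDR220C had 241 and 3, ECM12 380 and 9, and YJR120W 3645 and 84. The log2 ratios of the 7 ran from 4.28 for ECM12 (3.41 to 5.49) to 5.51 for YEL045C (4.56 to 6.93), and the small counts without cycloheximide make these intervals wide. YNL179C, YDR220C and YEL045C are not in the reference gene table, and ECM12 overlaps YHR022C by 106 bp.

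**Figure D5:**
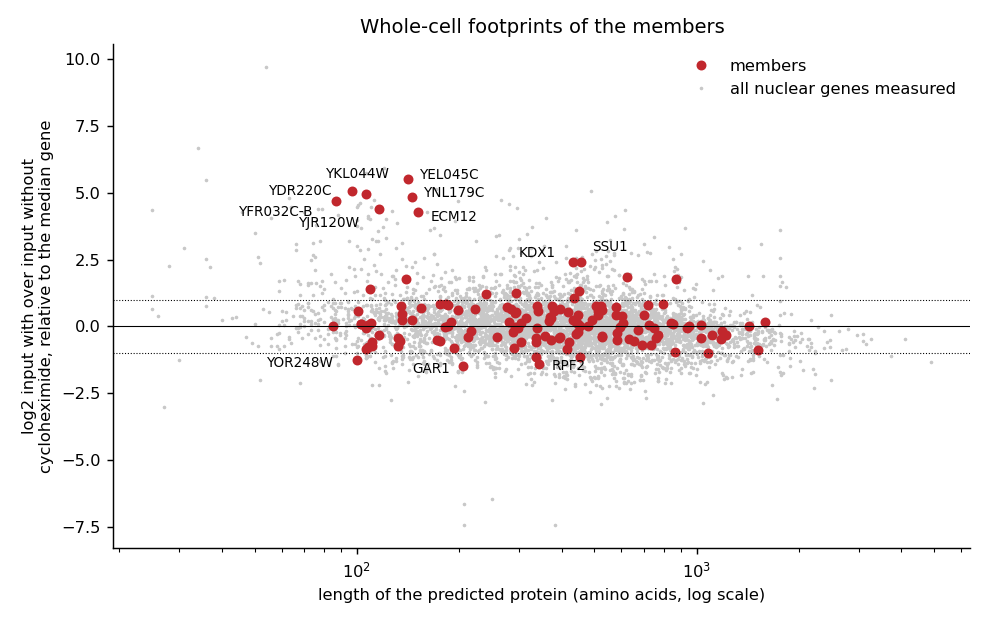
Log2 ratio of the input with cycloheximide over the input without it, relative to the median gene, against the length of the predicted protein (log scale), for the 136 members measured (red) and all nuclear genes measured (grey). Dotted lines mark 2-fold. The 7 members above 4 on the log2 scale encode 87 to 151 amino acids.

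None of these 7 except YJR120W was enriched in the pulldown with cycloheximide. YEL045C stood at -0.44 (-0.61 to -0.28), YNL179C at -0.37 (-0.44 to -0.30), YKL044W at -0.32 (-0.43 to -0.20) and YFR032C-B at -0.28 (-0.47 to -0.09). Longer members with high input ratios were SSU1 at 2.42 (2.33 to 2.51), with 11018 reads in the input with cycloheximide and 998 in the input without it, and the protein kinase gene KDX1 at 2.39 (1.76 to 3.17), with 222 and 20. SIA1 stood at 1.85 (1.55 to 2.18). For SSU1 and SIA1 the lower pulldown value with cycloheximide, at -0.54 and -0.66, shares its input library with this ratio.

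Presequence import genes were counted in the same way. Of the 24 listed, 16 were enriched with cycloheximide (median 2.47) and 7 without it, against the 12.5% and 6.39% of all genes, 16 passed 2-fold in the difference, and in the inputs 0 were higher and 2 lower. All 5 processing peptidase genes were enriched with cycloheximide, from CYM1 at 2.23 to OCT1 at 3.71, as were both folding genes, 6 of 10 genes of the inner membrane translocase and motor and 3 of 7 of the outer membrane (median 0.23). The 8 that were not enriched with cycloheximide were TOM22, TOM5, TOM6, TOM7, TIM23, TIM17, PAM16 and PAM18, from -0.28 for TOM7 to 0.83 for TIM17. TIM50 stood at 3.85, TOM70 at 3.61, SSC1 at 3.30, TOM40 at 3.17 and TOM20 at 2.78, while TIM23 stood at 0.46. Set beside these, YNL295W at 3.28 was within the range of the enriched import genes, and the 9 members between 1.08 and 1.66 were below every enriched gene of the list other than TIM21, which stood at 1.64.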

How the data were processed

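The deposited table holds raw counts of footprint reads per gene, per the file headers. It also holds RPKM, computed by the authors from those reads, gene length and depth, and a log2 enrichment that the authors took from pulldown and input RPKM. The MitoProt score, a fraction between 0 and 1, the annotation columns and the calls of enrichment are the authors' as deposited. Per the submitters' processing notes, CASAVA and genome build sacCer3 were used; neither the aligner nor the treatment of multiply mapping reads is stated in them. Values of 5 columns for another fusion protein were left out.

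From the counts, each library was scaled to its nuclear-gene total, 0.5 reads were added, and genes with at least 100 reads over a comparison's 2 libraries were centred on their median. The 95% intervals of a ratio are exact (Clopper-Pearson) on its pair of counts, and intervals of the difference use a normal approximation of the log ratio. The labels' protocol names no molecular identifiers, so reads may not be independent molecules. Names and coordinates for 127 of the 137 members came from the RefSeq gene table (R64); 10 were not matched and 4 overlap another gene there. No sequences are shown. The members and all lists were chosen with earlier results of these data known, and role groups and neighbours were chosen after values were seen. Genes were otherwise named by rank in each comparison, closeness to a threshold or read number. The procedure was tested on simulated data. Python 3.11.15, numpy 2.4.6, pandas 2.3.3, scipy 1.17.1, matplotlib 3.10.9 and, for TMM, edgeR 4.0.16 in R 4.3.3 were used.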

Additional observations from a re-analysis of the deposited data

How the results depend on the processing

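The same 14 members were enriched with cycloheximide under TMM scaling, a pseudocount of 1, a minimum of 20 reads and the authors' deposited log2 enrichment centred on its median. A minimum of 500 reads, and 2 alternatives chosen after seeing the data (at least 100 reads in the denominator library, and members absent from the reference or overlapping another gene left out), each lost YLR252W alone. On library totals without centring 5 remained, with a median of the members of -0.73. A fold of 4 left 5, a MitoProt minimum of 0.95 left 6 of 77, and a minimum of 0.8 gave 19 of 226, adding CST9, DUS1, GTO1, YLR202C and YOR289W. Leaving out members with only a systematic name left 10 of 100. No member carries a mitochondrial GFP annotation, so leaving such members out changed nothing.

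Without cycloheximide the count of 5 became 9 at 1.5-fold, 1 at 4-fold, 3 at a MitoProt minimum of 0.95 and 3 without systematic names; YOR105W passed under the authors' log2 values, which gave 6. The difference count of 5 became 2 on totals (median -0.69), 16 at 1.5-fold, 2 at 4-fold, 3 at 0.95 and 3 without systematic names, and under TMM it was 6 higher and 0 lower with a median of 0.05. The input count of 17 became 51 on totals (median 0.80), 30 and 11 at minimums of 20 and 500 reads, 37 and 9 at 1.5-fold and 4-fold, 31 and 8 at MitoProt minimums of 0.8 and 0.95, 7 without systematic names, and 3 with at least 100 reads in the input without cycloheximide. The last setting leaves out members with few reads without the drug by construction, and folds, score and read minimums change which members are counted; the cause was not tested otherwise. For the minimums of 20 and 500 reads and for TMM the share of all genes was not counted. A shift of the whole table cannot be told apart from one of the members under those settings. No named member that was 2-fold from the median gene changed sign under another scaling, pseudocount or the authors' values; values near 0 have no settled sign. The authors' log2 values hold no input comparison.

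No paired analysis was possible because each group held 1 library and no test was made. With 1 library per group the spread between cultures is unknown, and depth limits YLR252W, YOR105W and the short frames most.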
